A study of Homo sapiens with 8 samples.

Results

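The Hippo pathway genes described here were 36 transcripts of a human rhabdomyosarcoma cell line, measured with and without silencing of the homeobox transcription factor PROX1. They were chosen from a list of gene symbols in 3 classes, which were 9 transcription factors and cofactors (YAP1, WWTR1, TEAD1 to TEAD4, VGLL2, VGLL3 and VGLL4), 17 kinases and other regulators, and 10 genes known as targets of YAP and TAZ. All 36 matched 1 Ensembl gene each among the 58302 genes in the files, and all 36 passed the filter on low counts that left 12392 tested genes. The 4 shPROX1 libraries came from RD cells that carried a short hairpin RNA (shRNA) against PROX1, and the 4 control libraries from RD cells with a scrambled hairpin. RD is an established line from a tumour of the skeletal muscle lineage, and both groups were grown in serum-containing medium. The series design calls the libraries biological replicates. Whether the cells were pools or clones, how many hairpins were used and how long they acted are not given in the sources used here. The libraries held 3747090 to 4301987 counts in shPROX1 and 4055205 to 4865161 in control.

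The Hippo pathway is a kinase cascade that restrains the transcriptional coactivators YAP (gene YAP1) and TAZ (gene WWTR1). The MST kinases, encoded by STK3 and STK4, act with the scaffold SAV1 and phosphorylate the LATS kinases and their MOB1 partners. The LATS kinases phosphorylate YAP and TAZ, which are then kept in the cytoplasm or degraded. Unphosphorylated YAP and TAZ enter the nucleus and act through the DNA-binding TEAD factors, with which the VGLL cofactors also associate. In skeletal muscle TEAD factors bind MCAT elements of muscle genes, and YAP activity is known to restrain the differentiation of myoblasts and of embryonal rhabdomyosarcoma cells. The regulation of YAP and TAZ occurs largely on the proteins, which transcript counts do not measure.

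TEAD factors bind the bases GGAATG, and promoters that hold them are shown here because the list has both the factors and genes known as their targets. The 250 bases before each annotated start (RefSeq, GRCh38.p14) were searched on both strands for GGAATG or its complement CATTCC. Of the 36 genes, 30 had a promoter in the table, with 44 windows in all, and 9 genes held at least 1 match. Over all 27305 genes with a promoter, the share with at least 1 match was 14.3%. Matches were found in 4 of 7 targets (CCN2, ANKRD1, NUAK2 and THBS1), 4 of 16 regulators (PTPN14, AMOTL2, AJUBA and WWC2) and 1 of 7 factors (YAP1). CCN2 held 3 matches, beginning 169, 104 and 95 bases before the start, and 0.0826% of all 35116 windows held at least 3. The matches are given in capitals in the promoters of CCN2 (chr6:131951373-131951622, minus strand), THBS1 (chr15:39580829-39581078, plus strand) and YAP1 (chr11:102110197-102110446, plus strand), of which CCN2 and THBS1 rose after silencing and YAP1 was not called.
CCN2: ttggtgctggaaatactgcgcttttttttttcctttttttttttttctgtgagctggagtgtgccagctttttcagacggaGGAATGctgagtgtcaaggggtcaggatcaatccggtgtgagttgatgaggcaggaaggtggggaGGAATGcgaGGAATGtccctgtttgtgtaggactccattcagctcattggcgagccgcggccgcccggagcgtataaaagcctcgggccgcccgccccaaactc
THBS1: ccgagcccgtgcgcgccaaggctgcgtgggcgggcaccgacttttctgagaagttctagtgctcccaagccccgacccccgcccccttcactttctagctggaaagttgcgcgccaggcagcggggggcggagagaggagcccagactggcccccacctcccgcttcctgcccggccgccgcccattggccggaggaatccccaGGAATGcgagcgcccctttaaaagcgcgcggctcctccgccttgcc
YAP1: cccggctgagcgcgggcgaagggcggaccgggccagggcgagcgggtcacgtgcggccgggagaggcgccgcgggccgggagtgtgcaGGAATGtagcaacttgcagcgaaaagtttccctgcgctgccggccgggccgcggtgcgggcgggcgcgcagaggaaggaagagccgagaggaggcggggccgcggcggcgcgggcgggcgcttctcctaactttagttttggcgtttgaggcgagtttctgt
Stretches of 30 bases around single matches are given for a further target and for both regulators with a match that rose most. They lie in ANKRD1 at chr10:90921290-90921319 and chr10:90921198-90921227, in PTPN14 at chr1:214551785-214551814 and in AMOTL2 at chr3:134374499-134374528, all read on the minus strand.
ANKRD1 distal: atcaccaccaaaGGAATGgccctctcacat
ANKRD1 proximal: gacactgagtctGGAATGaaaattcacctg
PTPN14: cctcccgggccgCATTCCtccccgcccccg
AMOTL2: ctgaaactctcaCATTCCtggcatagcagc
These matches are letters in a window and do not show binding. NT5E, FJX1, TGFB1I1, LATS2 and FRMD6 rose and held no match in their windows, while NUAK2 and AJUBA held a match and were not called. The AP-1 sequence TGACTCA or its complement TGAGTCA, which often lies near TEAD sites in enhancers, was found in 0 of the 30 genes with a promoter, against 5.19% of all genes in the table. CCN1, CRIM1, ARHGEF17, TEAD1, TEAD4 and STK3 had no promoter in the table.

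Levels are given as CPM, the gene's share of all counts in the library scaled to 1e6, and, where different genes are set side by side, as CPM per kilobase of annotated exon (RPKM). Changes are log2 values, shPROX1 minus control, with the standard error of the edgeR fit. The words rose and fell are kept for genes with a Benjamini-Hochberg adjusted p under 0.05 over all tested genes in edgeR's quasi-likelihood test. In bulk RNA a lower share of cells that express a gene and a lower amount per cell cannot be told apart. PROX1 itself had 7.68, 10.3, 9.07 and 8.14 CPM in the shPROX1 libraries, against 20, 16.3, 16.7 and 21.6 CPM in control. It fell to 47.6% of control (log2 change -1.07 ± 0.15, edgeR adjusted p = 4.89e-06), a smaller reduction than the series' design text states. Of the muscle lineage markers, MYOD1 had 72.2 ± 4.49 CPM in shPROX1 and 71.2 ± 7.72 CPM in control (SD, n = 4 each). The other 6 of the 7 fell, MYOG by 1.32 on the log2 scale, so the summed level of the list was 784 to 873.5 CPM in shPROX1 and 1164.2 to 1206.2 CPM in control. Whether this shift has a part in the Hippo gene changes was not tested. Epithelial markers (EPCAM, CDH1, KRT5 and KRT19) and blood markers (PTPRC, CD3E and LYZ) had at most 3 counts per gene and library. Of the endothelial list PECAM1 held 8 counts over the shPROX1 libraries and 9 over control and CDH5 held 0, while the receptor gene TEK had 41.9 ± 2.04 CPM in shPROX1 and 44.6 ± 5.74 CPM in control. Mitochondrial genes held 0.12% to 0.278% of counts in shPROX1. In control they held 0.473% to 0.702% in replicates 2 to 4, above every shPROX1 library, and 0.098% in replicate 1. Control replicate 1 stood apart from the other libraries on the second principal component, and values without it are given for those of the 36 genes whose call it changes.

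Of the 36 Hippo pathway genes, 14 rose and 4 fell after PROX1 silencing. In the whole transcriptome 35.2% of tested genes were called, 17.3% as higher and 17.9% as lower. By class, targets counted 8 higher and 0 lower of 10, regulators 5 higher and 2 lower of 17, and factors 1 higher and 2 lower of 9. The median log2 change was 0.63 for the targets, 0.20 for the regulators and -0.09 for the factors, against -0.01 over all tested genes. A change of at least 1.5-fold was called for 5 targets, 4 regulators and 2 factors, and for 9.51% of all tested genes. The CPM values of the groups did not overlap for 17 of the 36 genes, against 32.3% of all tested genes. Without control replicate 1 the count was 13 higher and 7 lower. Over all tested genes that setting called 2158 higher and 2134 lower, against 2147 higher and 2217 lower with all libraries.

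**Figure D1:**
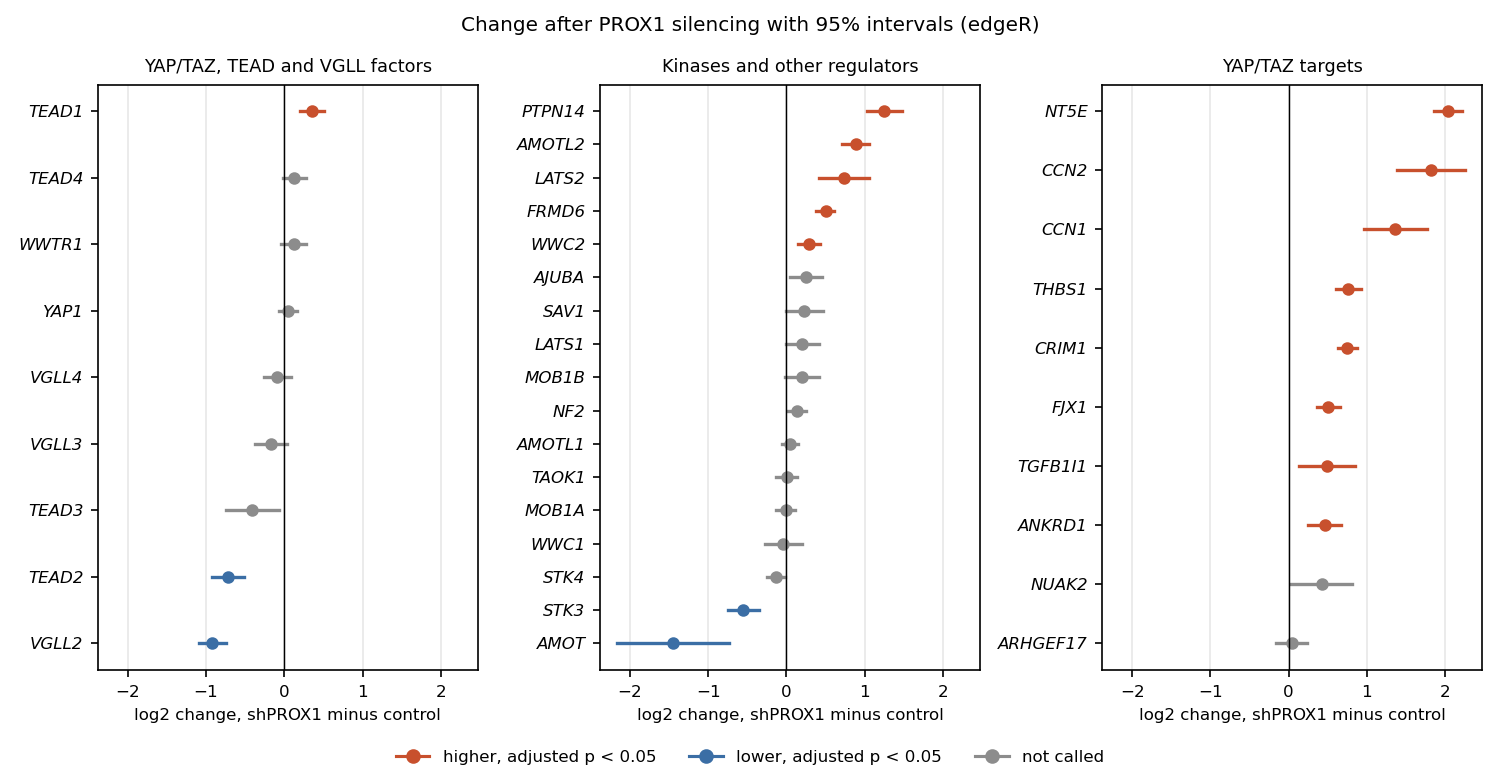
Log2 change (shPROX1 minus control, x axis) with its 95% interval for each gene, in 3 panels for factors, regulators and targets. Coloured points passed the edgeR test at an adjusted p under 0.05. The targets lie to the right of 0, with NT5E at 2.04 and ARHGEF17 at 0.04, while the factors spread from 0.36 for TEAD1 to -0.92 for VGLL2.

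Transcripts of both coactivators were abundant and were not called. YAP1 (ENSG00000137693, chromosome 11, 102110461 to 102233423, plus strand, GRCh38) had 145.9, 145.3, 139.3 and 136.7 CPM in the shPROX1 libraries, against 132.4, 153.6, 134.7 and 138.1 CPM in control. The shPROX1 values lay within the range of the control values. Its log2 change was 0.05 ± 0.06 (edgeR adjusted p = 0.573), with a 95% interval of -0.07 to 0.16. WWTR1 (ENSG00000018408, chromosome 3, 149517235 to 149736714, minus strand) had 157.3, 151.5, 205.2 and 168.3 CPM in the shPROX1 libraries, against 138.5, 177.3, 157.2 and 164.4 CPM in control. The groups overlapped, and shPROX1 replicate 3 was the highest library. The change of WWTR1 was 0.12 ± 0.08 (edgeR adjusted p = 0.253), with an interval of -0.04 to 0.28. Per length, YAP1 stood at 22.5 ± 0.723 RPKM in shPROX1 and 22.2 ± 1.52 RPKM in control, and WWTR1 at 20.3 ± 2.87 RPKM in shPROX1 and 18.9 ± 1.93 RPKM in control (SD, n = 4 each). YAP1 made up 52.8 ± 3.91% of their summed RPKM in shPROX1 and 54.0 ± 1.43% in control.

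The TEAD factors, through which YAP and TAZ reach DNA, moved in different directions. TEAD2 (ENSG00000074219, chromosome 19, 49340595 to 49362457, minus strand) had 20.3, 23.5, 22.4 and 23.2 CPM in the shPROX1 libraries, against 41.0, 40.4, 32.7 and 35.6 CPM in control. It fell to 60.8% of its control level with no overlap between the groups (log2 change -0.72 ± 0.10, edgeR adjusted p = 6.59e-06). TEAD1 rose by a smaller step, with 172.9, 163.0, 191.1 and 149.2 CPM in shPROX1, against 111.2, 144.5, 134.5 and 144.9 CPM in control (0.36 ± 0.08, edgeR adjusted p = 6.61e-04). Every shPROX1 library lay above every control library, although the lowest shPROX1 library (149.2 CPM) and the highest control library (144.9 CPM) were close. TEAD4, which takes part in myogenic differentiation in mouse cells, was the most abundant factor per length and was not called. It had 64.2, 64.8, 62.7 and 58.6 CPM in shPROX1, against 64.3, 51.3, 56.6 and 60.2 CPM in control, or 27.6 ± 1.24 RPKM in shPROX1 and 25.6 ± 2.43 RPKM in control (log2 change 0.13 ± 0.07, interval -0.02 to 0.28). TEAD3, the least abundant TEAD gene per length, was close to the threshold (-0.41 ± 0.16, edgeR adjusted p = 0.0538). Its shPROX1 values of 14.2, 8.56, 10.1 and 8.83 CPM overlapped the control values of 12.2, 13.3, 15.2 and 15.6 CPM through shPROX1 replicate 1. Without that library the log2 change of TEAD3 was -0.60 (edgeR adjusted p = 0.00712), and without control replicate 1 it was -0.47 (adjusted p = 0.0317). Leaving out any other single library left TEAD3 uncalled (log2 change -0.43 to -0.33, edgeR adjusted p = 0.0685 to 0.163). It passed the threshold with limma voom (adjusted p = 0.0416) and with upper-quartile factors (edgeR adjusted p = 0.0494). With mitochondrial genes left out it passed as well (edgeR adjusted p = 0.046). The remaining settings, DESeq2 among them (adjusted p = 0.122), gave no call. TEAD2 shared 10.7% of its exon bases with CD37 on the opposite strand, which had 1 count over the shPROX1 libraries and 0 over the control libraries.

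The summed level of the TEAD genes was 54.9 ± 2.74 RPKM in shPROX1 and 55.8 ± 1.79 RPKM in control (SD, n = 4 each), while its make-up differed. TEAD1 supplied 29.9 ± 1.88% of it in shPROX1 and 23.4 ± 2.98% in control. TEAD2 supplied 13.7 ± 1.42% in shPROX1 and 22.5 ± 2.34% in control. TEAD4 stayed the largest part, with 50.2 ± 1.42% in shPROX1 and 45.8 ± 3.44% in control, and TEAD3 the smallest, with 6.22 ± 1.39% in shPROX1 and 8.31 ± 0.983% in control. In every library TEAD4 ranked the highest per length and TEAD3 the lowest. TEAD1 ranked above TEAD2 in all 4 shPROX1 libraries. In control the shares of TEAD1 and TEAD2 overlapped, with TEAD1 at 19.0% to 25.8% and TEAD2 at 20.3% to 24.9%.

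Of the VGLL cofactors, which bind TEAD factors in place of YAP and TAZ, VGLL2 fell. VGLL2 (ENSG00000170162, chromosome 6, 117265558 to 117273565, plus strand) is expressed in skeletal muscle in vertebrates. It had 26.3, 25.0, 32.6 and 27.7 CPM in the shPROX1 libraries, against 51.3, 53.3, 52.0 and 56.7 CPM in control. The groups were well apart (log2 change -0.92 ± 0.08, 52.9% of control, edgeR adjusted p = 1.18e-08), and VGLL2 was the factor with the largest change of the 9. VGLL4, a competitor of YAP for TEAD factors, was at -0.09 ± 0.08 and VGLL3 at -0.17 ± 0.10, neither called. VGLL3 ranged from 39.2 to 44.2 CPM in shPROX1 and from 38.2 to 59.9 CPM in control. Control replicate 1 was the lowest VGLL3 library, and without it the change was -0.26 (edgeR adjusted p = 0.0286). Without control replicate 2, the highest, it was -0.05 (edgeR adjusted p = 0.716), and leaving out any other single library gave no call. Per length VGLL2 was the most abundant of the 3 in both groups, with 12.5 ± 1.49 RPKM in shPROX1 and 23.9 ± 1.07 RPKM in control. Its share of the summed VGLL level was 57.3 ± 3.49% in shPROX1 and 70 ± 1.98% in control, and the sum was 21.7 ± 1.30 RPKM in shPROX1 and 34.1 ± 1.32 RPKM in control. VGLL4 shared 22.1% of its exon bases with ATG7 on the opposite strand, which is expressed (36.7 ± 2.45 CPM in shPROX1, log2 change 0.01 ± 0.09), so that reads of the pair may be shared if counting ignored strand.

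**Figure D2:**
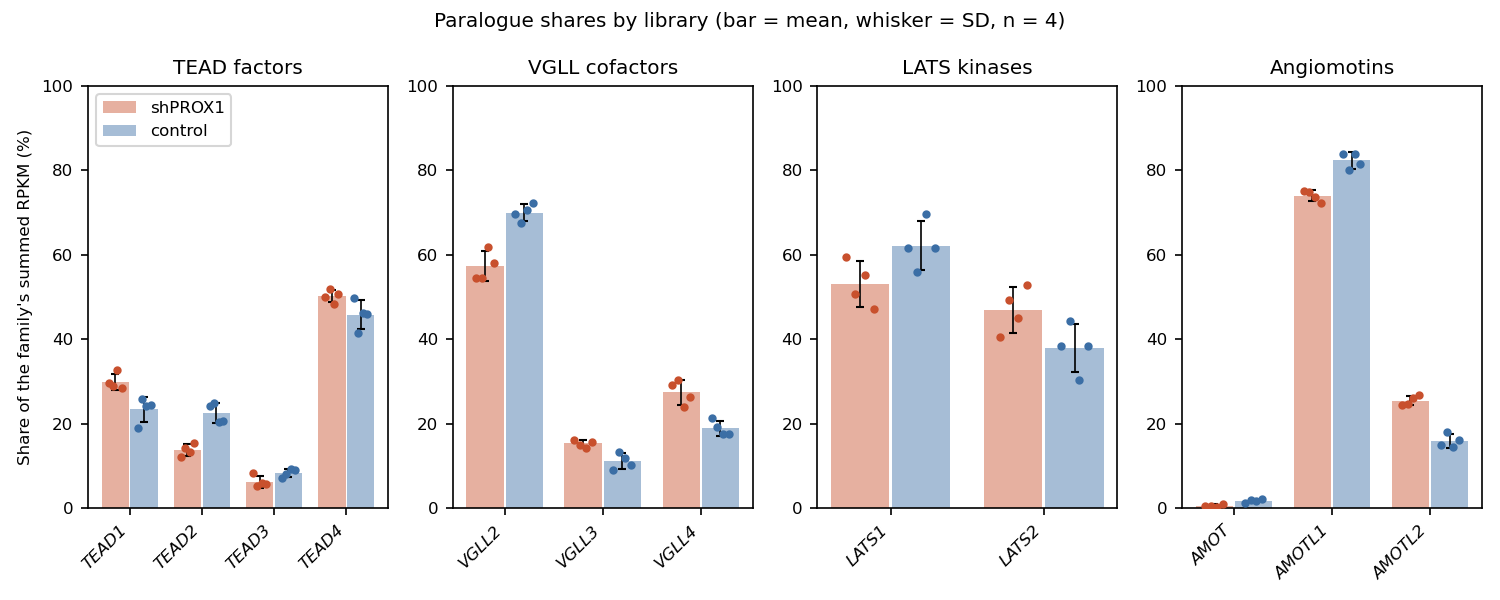
Share of each gene in the summed RPKM of its family (y axis, percent) for TEAD factors, VGLL cofactors, LATS kinases and angiomotins. Bars are means of 4 libraries, whiskers SD and points single libraries, with shPROX1 left of control. TEAD1 and AMOTL2 took larger shares in shPROX1 and TEAD2 and VGLL2 smaller ones, without overlap between the groups.

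Of the 4 core kinases, LATS2 rose, STK3 fell, and LATS1 and STK4 were not called. STK3 (ENSG00000104375, chromosome 8, 98401403 to 98942827, minus strand) had 24.0, 22.3, 26.4 and 22.8 CPM in the shPROX1 libraries, against 34.6, 40.2, 33.6 and 33.7 CPM in control. It fell to 68.3% of control without overlap (log2 change -0.55 ± 0.10, edgeR adjusted p = 1.11e-04). Its paralogue STK4 was the main MST transcript per length, with 15.2 ± 0.637 RPKM in shPROX1 and 17.0 ± 1.01 RPKM in control, while STK3 was at 1.89 ± 0.147 RPKM in shPROX1 and 2.82 ± 0.249 RPKM in control. STK4 missed the threshold (-0.14 ± 0.06, edgeR adjusted p = 0.0541) and passed it in 4 of 18 alternative analyses, among them without control replicate 1 (-0.17, adjusted p = 0.0141). LATS2 (ENSG00000150457, chromosome 13, 20973032 to 21061547, minus strand) had 17.0, 23.5, 21.1 and 22.8 CPM in the shPROX1 libraries, against 10.6, 16.5, 9.92 and 14.4 CPM in control. LATS2 rose 1.66-fold (0.73 ± 0.15, edgeR adjusted p = 6.06e-04). The gap between the groups was narrow, since the lowest shPROX1 library was at 17.0 and the highest control library at 16.5 CPM. LATS1 was at 0.20 ± 0.10 (edgeR adjusted p = 0.127, interval -0.01 to 0.41). LATS2 made up 46.9 ± 5.38% of the summed LATS RPKM in shPROX1 and 37.8 ± 5.71% in control, and these shares overlapped between the groups.

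Among the kinase partners, MOB1A was the most abundant regulator per length, with 35.7 ± 2.12 RPKM in shPROX1 and 36.5 ± 2.94 RPKM in control. It had 218.3, 240.3, 217.5 and 242.7 CPM in the shPROX1 libraries, against 215.5, 256.2, 223.3 and 245.2 CPM in control (log2 change -0.01 ± 0.06, edgeR adjusted p = 0.919). The groups overlapped throughout. The interval of the change in MOB1A was -0.13 to 0.11. MOB1B (0.20 ± 0.11), the MST scaffold SAV1 (0.23 ± 0.12) and TAOK1 (0.003 ± 0.06), a kinase that activates the MST kinases, were not called. NF2, whose product merlin brings LATS kinases to the membrane, was at 0.13 ± 0.06 (edgeR adjusted p = 0.0673). SAV1 shared 14.9% of its exon bases with ATL1 on the opposite strand, which had 20 counts in all over the control libraries.

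The regulators with the largest rises were PTPN14 and AMOTL2, proteins that bind YAP and hold it outside the nucleus. PTPN14, a phosphatase gene (ENSG00000152104, chromosome 1, 214348696 to 214552449, minus strand), had 67.3, 63.6, 80.1 and 68.6 CPM in the shPROX1 libraries, against 20.5, 32.8, 33.9 and 31.7 CPM in control. The lowest shPROX1 library was well above the highest control library (2.38-fold, log2 change 1.25 ± 0.11, edgeR adjusted p = 2.85e-09). Control replicate 1 was the lowest library, and the change was 1.12 to 1.32 when single libraries were left out. AMOTL2, an angiomotin (ENSG00000114019, chromosome 3, 134355874 to 134375479, minus strand), had 50.5, 50.2, 57.4 and 58.8 CPM in shPROX1, against 28.0, 31.8, 27.3 and 31.9 CPM in control. It rose 1.85-fold without overlap (0.89 ± 0.08, edgeR adjusted p = 2.03e-08). AMOTL1, the main angiomotin transcript, was at 0.05 ± 0.05 (interval -0.06 to 0.15). AMOT fell at a low level, with 7, 5, 2 and 13 counts in the shPROX1 libraries, against 14, 19, 17 and 30 counts in control (1.6 ± 1.05 CPM in shPROX1 and 4.57 ± 1.21 CPM in control, log2 change -1.45 ± 0.34, edgeR adjusted p = 0.00205). Its highest shPROX1 library and lowest control library differed by 1 count (13 and 14), and did not overlap in CPM. AMOTL2 made up 25.5 ± 1.13% of the angiomotin RPKM in shPROX1 and 15.9 ± 1.64% in control. PTPN14, AMOTL2 and LATS2 are also listed in a published signature of YAP and TAZ target genes, and of the 14 regulators outside that signature 2 rose and 2 fell. These are 28.6% called, against 35.2% of all tested genes, and the difference, on 14 genes, was not tested.

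FRMD6, a FERM domain protein upstream of the kinases (ENSG00000139926, chromosome 14, 51489100 to 51730727, plus strand), rose as well. It had 192.5, 192.8, 184.9 and 172.2 CPM in the shPROX1 libraries, against 142.5, 130.2, 133.5 and 128.7 CPM in control. The groups did not overlap (1.41-fold, log2 change 0.50 ± 0.06, edgeR adjusted p = 2.05e-07). WWC2, a relative of the scaffold KIBRA, rose by less, with 76.6 to 89.0 CPM in shPROX1 and 64.8 to 74.5 CPM in control (0.29 ± 0.07, edgeR adjusted p = 0.00157). CLDN22 on the opposite strand covers 25.9% of the exon bases of WWC2 and had 0 counts in all libraries. KIBRA itself, gene WWC1, was at -0.04 ± 0.12 and was not called. AJUBA, a LIM protein that inhibits LATS kinases, missed the threshold (0.25 ± 0.10, edgeR adjusted p = 0.0552).

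**Figure D3:**
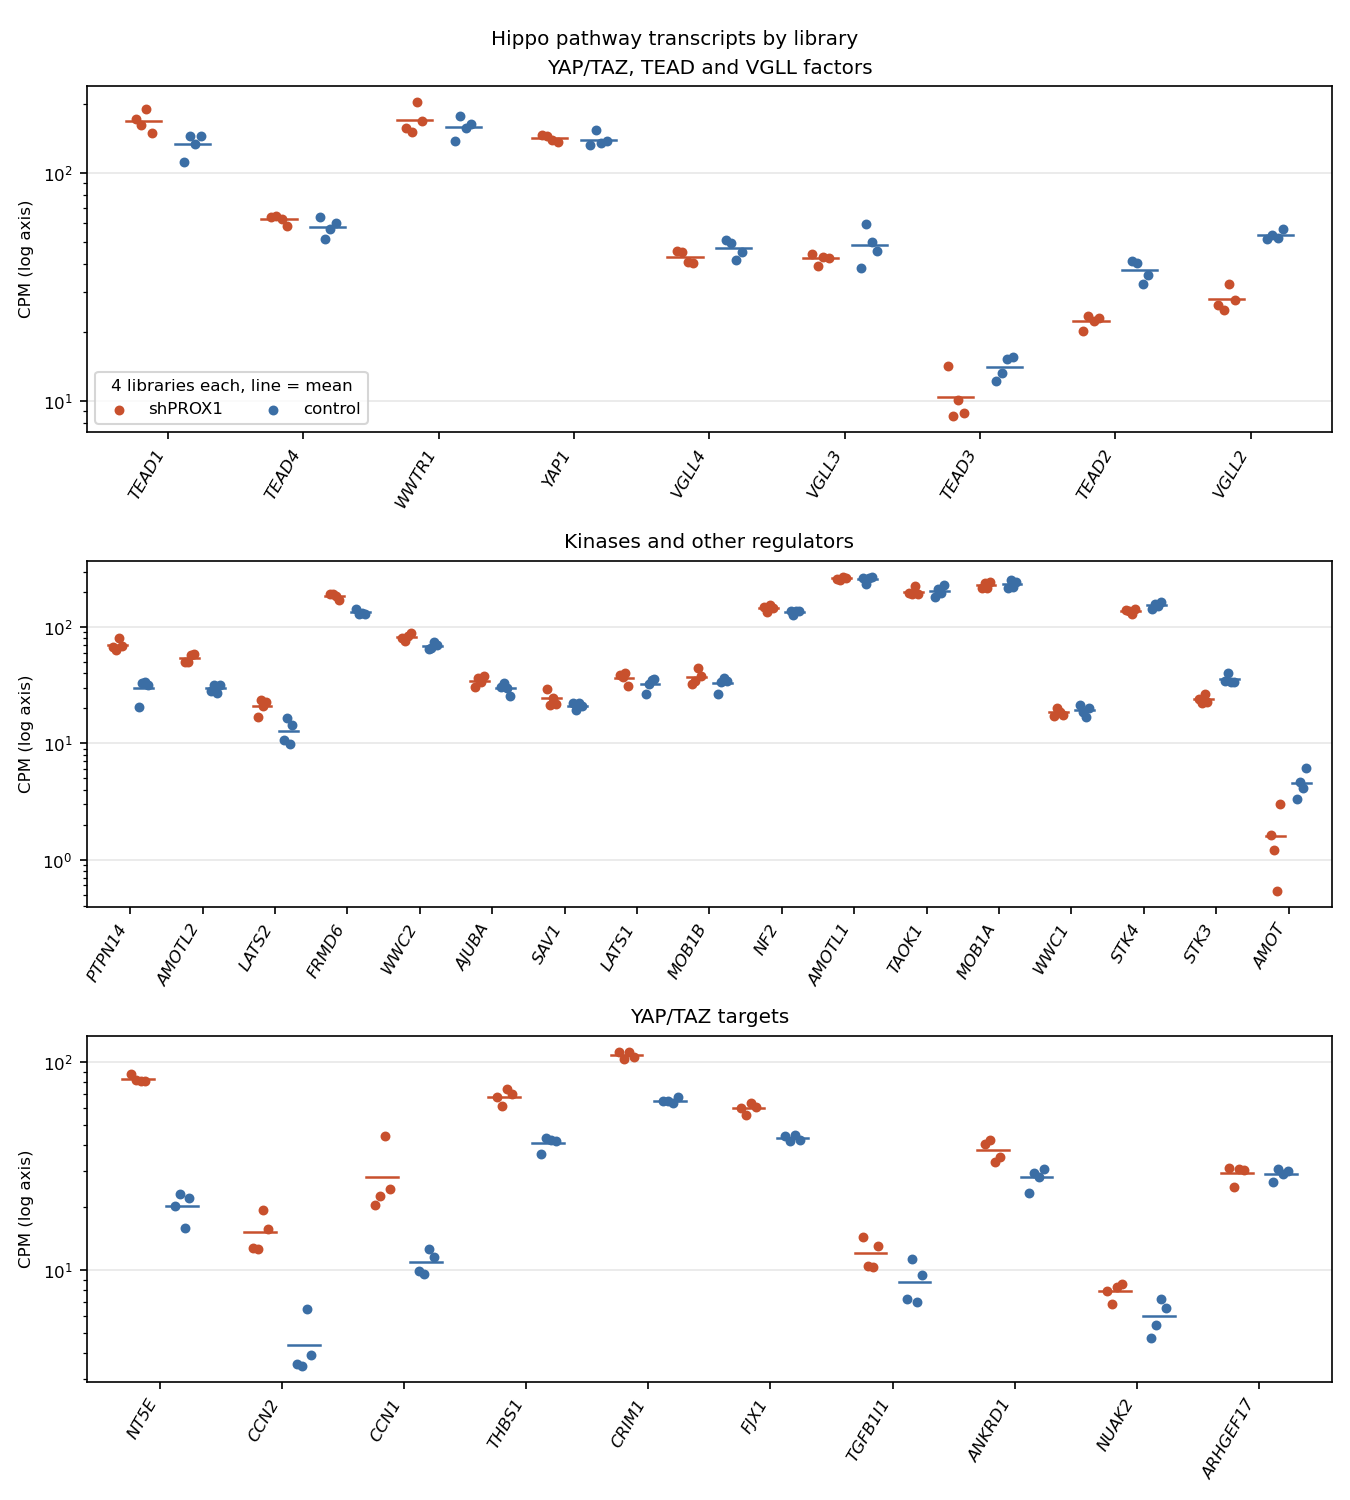
CPM (log axis) of each gene in the 4 shPROX1 and 4 control libraries, in 3 panels for factors, regulators and targets, with lines at the group means. YAP1 and WWTR1 overlap between the groups, VGLL2, TEAD2 and STK3 are lower in every shPROX1 library, and PTPN14, AMOTL2, NT5E, CCN2 and CCN1 are higher in every shPROX1 library.

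Of the genes known as targets of YAP and TAZ, 8 of 10 rose, by 1.38-fold for ANKRD1 up to 4.12-fold for NT5E. NT5E encodes a surface enzyme that makes adenosine (ENSG00000135318, chromosome 6, 85449584 to 85495791, plus strand). It had 87.5, 82.0, 80.9 and 81.4 CPM in the shPROX1 libraries, against 20.3, 23.2, 16.0 and 22.2 CPM in control (log2 change 2.04 ± 0.09, edgeR adjusted p = 2.26e-14). The lowest shPROX1 library was more than 3 times the highest control library. CCN2, a secreted matricellular protein (ENSG00000118523, chromosome 6, 131948176 to 131951373, minus strand), had 12.8, 12.7, 19.5 and 15.8 CPM in shPROX1, against 3.53, 3.45, 6.53 and 3.91 CPM in control. CCN2 rose 3.53-fold (1.82 ± 0.21, 95% interval 2.62-fold to 4.74-fold, edgeR adjusted p = 2.92e-07) on 248 counts over the shPROX1 libraries and 75 over control. Its relative CCN1 (ENSG00000142871, chromosome 1, 85580761 to 85583962, plus strand) had 20.5, 22.8, 44.3 and 24.6 CPM in shPROX1, against 9.89, 9.62, 12.6 and 11.5 CPM in control. No control library reached the lowest shPROX1 library (2.58-fold, 1.36 ± 0.20, edgeR adjusted p = 9.41e-06). Replicate 3 was the highest library for both genes within shPROX1 and within control, and for CCN1 the change was 1.08 to 1.49 with single libraries left out. The coefficient of variation among shPROX1 libraries was 39.1% for CCN1, against 3.73% for NT5E.

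THBS1, CRIM1 and FJX1 rose by smaller steps than NT5E, CCN2 and CCN1, and varied less among the shPROX1 libraries than CCN2 and CCN1. THBS1, which encodes the matrix glycoprotein thrombospondin-1 (chromosome 15, 39581079 to 39599466, plus strand), had 67.7, 61.7, 73.9 and 70 CPM in the shPROX1 libraries, against 36.3, 43.2, 42.3 and 41.7 CPM in control (log2 change 0.76 ± 0.08, edgeR adjusted p = 3.74e-08). CRIM1, a transmembrane protein that binds bone morphogenetic proteins (chromosome 2, 36355926 to 36551135, plus strand), had 112.2, 103.5, 111.3 and 106.0 CPM in shPROX1, against 65.0, 64.9, 63.4 and 68.2 CPM in control (0.75 ± 0.06, edgeR adjusted p = 6.47e-10). Both were separated by more than the range within either group. FJX1, the human relative of the Drosophila gene four-jointed, which acts on the cadherins Fat and Dachsous in flies (chromosome 11, 35618419 to 35620868, plus strand), had 60.1, 55.8, 63.8 and 60.9 CPM in shPROX1, against 44.0, 41.7, 44.5 and 42.1 CPM in control. FJX1 rose 1.42-fold (0.50 ± 0.07, edgeR adjusted p = 5.82e-06) and was the most abundant target per length, at 24.5 ± 1.35 RPKM in shPROX1 and 17.6 ± 0.569 RPKM in control. ANKRD1, an ankyrin repeat protein of striated muscle (chromosome 10, 90912096 to 90921276, minus strand), had 40.5, 42.3, 33.1 and 35.1 CPM in shPROX1, against 23.6, 29.3, 28.1 and 30.6 CPM in control. Its groups did not overlap, but the gap was narrow (0.46 ± 0.10, edgeR adjusted p = 0.00108).

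The remaining 3 targets had a weak call or none. TGFB1I1, a focal adhesion adaptor (chromosome 16, 31471585 to 31477960, plus strand), had 14.4, 10.5, 10.4 and 13.0 CPM in the shPROX1 libraries, against 7.30, 11.3, 7.01 and 9.45 CPM in control. The groups overlapped through control replicate 2, and the call was weak (0.49 ± 0.17, edgeR adjusted p = 0.0321). It was lost with DESeq2 (adjusted p = 0.0725) and when control replicate 1 or 3 or shPROX1 replicate 1 or 4 was left out (log2 change 0.39 to 0.45, edgeR adjusted p = 0.0791 to 0.127). NUAK2, a kinase related to AMPK, had 130 counts over the shPROX1 libraries and 104 over control and was not called (0.42 ± 0.19, edgeR adjusted p = 0.0881). ARHGEF17, a guanine nucleotide exchange factor, had 29.3 ± 2.73 CPM in shPROX1 and 29 ± 1.86 CPM in control (0.04 ± 0.10, interval -0.16 to 0.24). In ARHGEF17 the upper bound of the interval corresponds to a 1.18-fold rise, below the fitted rise of each of the 8 called targets. The interval of TGFB1I1, from 1.09-fold to 1.81-fold, includes that value.

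**Figure D4:**
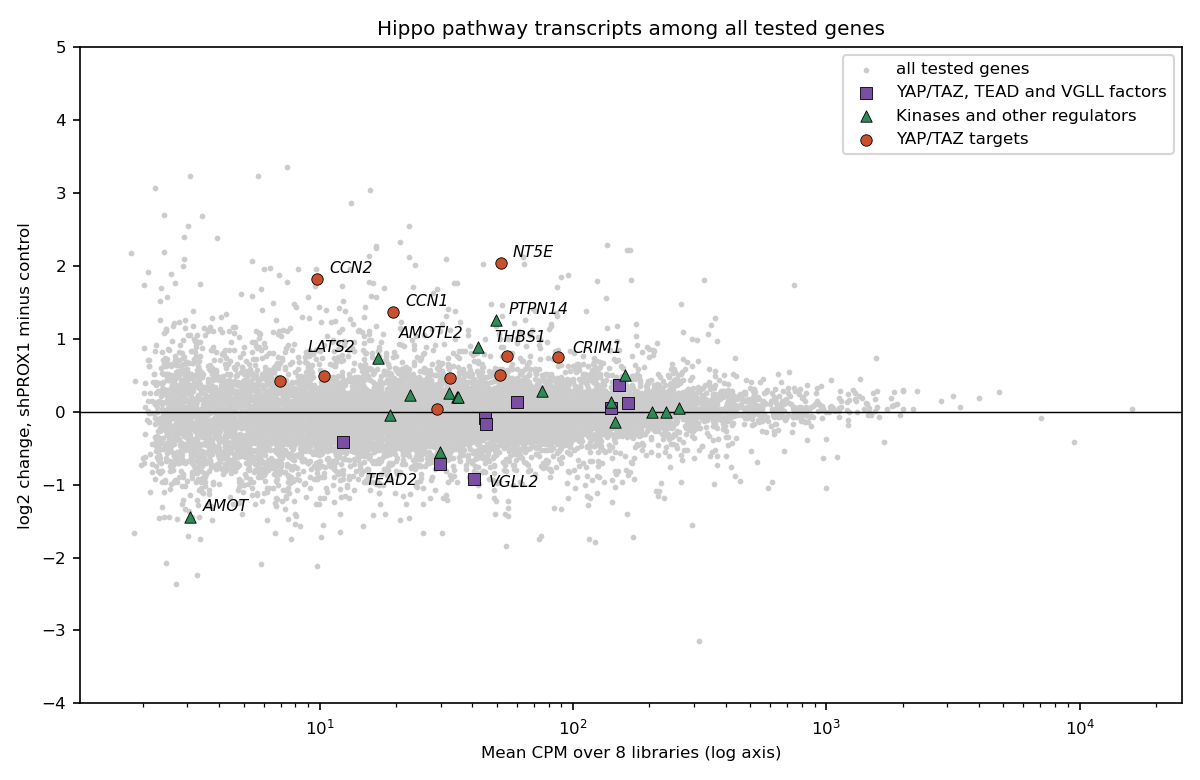
Log2 change (shPROX1 minus control, y axis) against the mean CPM of all 8 libraries (x axis, log scale) for all tested genes (grey) and the 36 Hippo pathway genes by class. NT5E, CCN2, CCN1 and PTPN14 lie above 1 on the log2 scale, and AMOT, at a low level, lies below -1.

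Other genes of the pathway were read from lists that hold none of the 36, and each count is to be read against the 35.2% of all tested genes that were called. Over these lists together 22 rose and 11 fell of 63 tested, and without control replicate 1 the counts were 20 higher and 9 lower. The rest of the published target signature counted 6 higher and 1 lower of 10 tested (70% called, median log2 change 0.39), so that the whole signature counted 15 higher and 1 lower of 21 tested. AXL, a receptor tyrosine kinase, had 149.6 ± 9.90 CPM in shPROX1 and 41.4 ± 3.76 CPM in control (1.88 ± 0.07), and the membrane repair protein MYOF rose as well (0.85 ± 0.07). IGFBP3 (0.71 ± 0.16), a binding protein of insulin-like growth factors, and GADD45A (0.65 ± 0.10), a stress response gene, rose by less. The RNA-binding protein gene RBMS3 fell (-0.27 ± 0.07), ASAP1 was not called (0.13 ± 0.10) and FOXF2, with 12 counts in each group, was below the filter. The list was taken from published work on other cells, but its members were examined with results of these libraries known.

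Junction, polarity and cadherin genes upstream of the kinases moved both ways, with 6 higher and 5 lower of 17 tested (64.7% called, median 0.01). RASSF5, a member of the RASSF family that binds MST kinases, had 16.2 ± 0.663 CPM in shPROX1 and 8.69 ± 1.03 CPM in control and rose (0.92 ± 0.14). RASSF4 of the same family fell to 38.3 ± 1.56 CPM in shPROX1, against 77.5 ± 2.68 CPM in control (-1.0 ± 0.07), and the KIBRA relative WWC3 fell by 0.92. SCRIB, the most abundant gene of this list without a call, was at -0.05 ± 0.05. Of the STRIPAK complex, a phosphatase complex that inactivates MST kinases, 4 of 15 genes rose and 1 fell (33.3% called, median 0.04), a share near that of all tested genes. Its kinase subunit STK26 fell (-0.36 ± 0.05), PDCD10 (0.27 ± 0.08), SLMAP (0.22 ± 0.06) and STRN (0.20 ± 0.07) rose, and the scaffold PPP2R1A was not called (-0.08 ± 0.05). Other upstream kinases and LATS relatives counted 4 higher and 2 lower of 10 tested (60% called, median 0.13). TAOK3 (0.41 ± 0.07), MAP4K4 (0.39 ± 0.04) and MAP4K3 (0.38 ± 0.08) rose, the LATS relative STK38L fell (-0.38 ± 0.08), and MAP4K5 was not called (-0.04 ± 0.07). Genes for the turnover and cytoplasmic retention of YAP and TAZ counted 2 higher and 2 lower of 11 tested (36.4% called, median 0.01), also near that of all tested genes. The ubiquitin ligase subunit FBXW11 (-0.36 ± 0.06) and the deubiquitinase USP9X (-0.22 ± 0.06) fell, the 14-3-3 genes YWHAQ (0.17 ± 0.04) and YWHAZ (0.14 ± 0.05) rose, and YWHAE was not called (0.02 ± 0.04).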

How the data were processed

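The 8 libraries were made from total RNA with a directional kit, per the labels' protocols. Values deposited by the authors are raw counts of reads for each gene, with no normalization. FastQC, HISAT2, HTSeq, DESeq2 and the build GRCh38 (hg38) are named in the submitters' processing notes. Versions, the annotation release and the strand setting of the counting are not given in the sources used here. Of 58302 gene identifiers, 57532 matched the symbol table and 58039 GENCODE 29, which supplied exon lengths. Coordinates are those of the files with 1 added to the start.

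Groups and replicate numbers came from the titles. The test was the quasi-likelihood F test of edgeR 4.0.16 (R 4.3.3) on counts that passed filterByExpr, with TMM factors and no covariate. P-values were adjusted over 12392 genes by the Benjamini-Hochberg method. Intervals are 95% intervals of that fit. The fit was checked on simulated data. P-values measure the spread between these libraries, and no pair of libraries within a group matched to within counting error. Chi-square per degree of freedom was 1.19 to 2.16 for pairs of shPROX1 libraries and 2.39 to 6.34 for pairs of control libraries. Depth limits low genes, since 3 counts correspond to 0.617 to 0.801 CPM. Members and lists were chosen with earlier results of these data known. Named in detail were members called at a log2 change of at least 0.4 in size, YAP1, WWTR1 and the most abundant member of each class, and from each other list up to 4 called genes of at least 5 CPM with the largest change and the most abundant uncalled gene, apart from items not reported here. TEAD1, TEAD3, TEAD4, WWC2 and a few others were given more fully after their values were seen. Other settings tried were upper-quartile and RLE factors, both other filters on low counts, DESeq2 1.42.0, limma 3.58.1 voom, a replicate block, each library left out, a threshold of 0.01, glmTreat against 1.5-fold and removal of mitochondrial genes (Python 3.11.15, pandas 2.3.3, scipy 1.17.1).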

Additional observations from a re-analysis of the deposited data

Results flagged for a closer look

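In 7 of 74 gene and group combinations (PROX1 and the 36 genes in each group) 1 library lay far from the other 3 by Dixon's ratio, a rule that chance meets in about 1 of 20 groups. Control replicate 2 was the highest control library for STK3, at 40.2 CPM, against 33.6 to 34.6 CPM in the other controls. It was also the lowest for AMOTL1, at 235.7 CPM, against 265.3 to 269.9 CPM. PTPN14 in control replicate 1 was at 20.5 CPM, against 31.7 to 33.9 CPM in the other controls. CCN2 in control replicate 3 was at 6.53 CPM, against 3.45 to 3.91 CPM in the other controls. TAOK1 in shPROX1 replicate 3 was at 227.4 CPM, against 192.7 to 197.4 CPM in the other shPROX1 libraries. NT5E in shPROX1 replicate 1 was at 87.5 CPM, against 80.9 to 82.0 CPM in the others. ARHGEF17 in shPROX1 replicate 2 was at 25.2 CPM, against 30.2 to 31.0 CPM in the others. The causes of these values were not tested.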

How the results depend on the processing

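Across 648 pairs of a Hippo pathway gene and an alternative analysis, 608 kept the direction and the side of the threshold, 17 lost the call, 13 gained it and 10 changed sign, and 16 of 36 genes kept both throughout. The sign changes were in 4 uncalled genes near 0. With single libraries left out, the log2 change ranged from -0.05 to 0.04 for MOB1A, from -0.1 to 0.01 for WWC1, from -0.05 to 0.06 for TAOK1 and from -0.003 to 0.1 for ARHGEF17, and with upper-quartile factors that of TAOK1 was -0.005. A test against a 1.5-fold change, which asks for more than a difference from 0, called 369 of all tested genes (204 higher and 165 lower). It called 6 Hippo pathway genes higher and 1 lower, with 0 factors higher and 1 lower, 2 regulators higher and 0 lower and 4 targets higher, and 3 other pathway genes higher and 1 lower. With single libraries left out, Hippo pathway genes called lower numbered 4 to 7, factors called lower 2 to 4 and targets called higher 7 to 8. Over all tested genes, 1895 to 2134 were then called lower and 1893 to 2158 higher. The highest of the counts of lower genes came without control replicate 1, when TEAD3, VGLL3 and STK4 were called as well. PROX1 stayed between -1.15 and -0.99 on the log2 scale when single libraries were left out. DESeq2 called 3483 of all tested genes in place of 4364. Libraries with the same replicate number did not deviate together (correlations of -0.0508 to 0.0501). Such correlations cannot exclude a pairing, and the titles give only the replicate number. With the replicate number as a block 4187 genes were called, among them 14 Hippo pathway genes higher and 4 lower. Depth limits AMOT, NUAK2, TGFB1I1 and CCN2 most, which had the fewest counts of the 36.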
